A study of Oryza sativa Japonica Group with 10 samples.

Results

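The comparison set the late phase of low-phosphate exposure against the early phase in rice seedlings. The late phase was the 4 arrays of seedlings held short of phosphate for 48 and 72 h, and the early phase was the 4 arrays of seedlings kept in it for 6 and 24 h, together 8 of the 10 arrays of the series. The other 2 arrays, the control, came from seedlings with sufficient phosphate and served to place the levels. They also entered the fit behind the calls, through the spread between arrays of 1 group. All seedlings were of the japonica cultivar Zhonghua 10, with no mutant or transgene named, about 1 week old, and had 2 arrays per time that the labels call biological replicates. The labels speak of 2 independent plants as the source of RNA without saying whether that is per sample or per group, so p-values measure only the spread between these samples. No phosphate-sufficient seedlings were used beside each time here, so hours in low phosphate, seedling age and time of day cannot be told apart. A gene was described as separated when all 4 late arrays lay above, or all 4 below, all 4 early arrays.

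Plants that run short of phosphate reprogram transport and metabolism through PHR transcription factors, which bind the promoters of starvation genes, and SPX proteins, which hold PHR factors back while phosphate is plentiful. Downstream of this pair stand the PHT1 uptake carriers, the PHO1 exporters that load the xylem, and enzymes that replace membrane phospholipids with galactolipids. In rice seedlings the response also touches iron, nitrate and silicon handling, hormone signalling and root growth.

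Among named genes, the widest separations upwards included developmental regulators and growth genes such as OsMADS5, OsRR9 and OsFEN-1, and those downwards included the nitrate reductase NIA1, calcium signalling genes and jasmonate repressors. Of 34355 probe sets tested, limma with a mean for each time called 7015 higher (20.4%) and 5841 lower (17%) in the late phase at a Benjamini-Hochberg adjusted p under 0.05. All 4 late arrays lay above all 4 early arrays at 3164 probe sets (9.21%) and below them at 2031 (5.91%). Probe sets that met both criteria numbered 2841 higher (8.27%) and 1906 lower (5.55%), standing for 1943 and 1367 genes. Their median absolute log2 difference was 0.65 for the higher and 0.69 for the lower ones, 596 and 562 of them differed by at least 1, and 38 and 58 had a gap of at least 1 log2 unit between the nearest arrays of the phases. The ratio of mean signals, the kind of rule the series text uses against the control, was beyond 2-fold at 1505 probe sets higher (4.38%) and 1323 lower (3.85%), and of these 604 (1.76%) and 598 (1.74%) were also separated. Separation and the limma call rest on the same signals and are not independent of each other.

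These calls measure the late mean against the early mean relative to the spread between the 2 arrays of a time. When the 4 arrays of a phase were pooled as replicates, so that differences between times within a phase counted as error, 448 probe sets were higher (1.3%) and 400 lower (1.16%), and 6424 had an unadjusted p under 0.05. With harvest time as a random block (consensus correlation 0.74) limma called 5 higher (0.0146%) and 25 lower (0.0728%), with 3027 at an unadjusted p under 0.05. Of 173 named genes called with a mean for each time, 120 did not pass in the pooled fit and 170 not with the random block. With each array centred on its median signal the split of calls turned, with 3807 higher and 8693 lower, and the median difference over all probe sets moved to -0.09 from 0.08 as deposited.

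Facts of the arrays that bear on the phases are these. The median signal was 69.2 and 68.4 on the 72 h arrays, and it lay between 47.4 and 54 on the other 8. The log2 ratio of 3′ to 5′ signal of rice Gapdh was 1.67 and 1.49 at 48 h and 4.73 and 5.48 at 72 h, against 2.35 and 2.57 at 6 h and 1.56 and 1.44 at 24 h. Bacterial dap, spiked into the samples, gave 2.21 and 1.99 at 48 h and 5.65 and 6.40 at 72 h, against 3.27 and 3.73 at 6 h and 2.04 and 1.84 at 24 h. For these 2 transcripts the 48 h and 24 h arrays had like ratios while the 72 h arrays stood apart. The 72 h arrays were also highest for rice actin (2.86 and 3.01) and rice cyclophilin. The same held for bacterial lys (2.59 and 2.89), phe and thr (8.77 and 8.63). On the other arrays the ratio reached at most 1.95 for actin, 2.08 for lys and 7.89 for thr. The 48 h and 24 h arrays were not alike for every transcript. Rice cyclophilin gave 0.17 and 0.21 at 24 h, 1.08 and 1.21 at 48 h and 1.71 and 1.81 at 72 h. Rice ubiquitin gave -0.49 and -0.58 at 24 h, -0.65 and -0.70 at 48 h and -0.53 and -0.48 at 72 h. In ubiquitin alone the 72 h arrays overlapped those of 24 h. The part of these ratios in the results was not tested. The 2841 higher and 1906 lower probe sets were also called the same way in 48 h alone against the early mean at 2342 and 1634, in 72 h alone at 2584 and 1766, against 24 h alone at 2534 and 1766, and against 6 h alone at 2246 and 1633. Log2 signals of 2 late arrays of different times correlated across probe sets at 0.901 to 0.903, those of a late and an early array at 0.881 to 0.921, and those of 2 arrays of 1 time at 0.910 to 0.938. The late arrays were therefore not more alike among themselves than some of them were to early arrays.

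**Figure D1:**
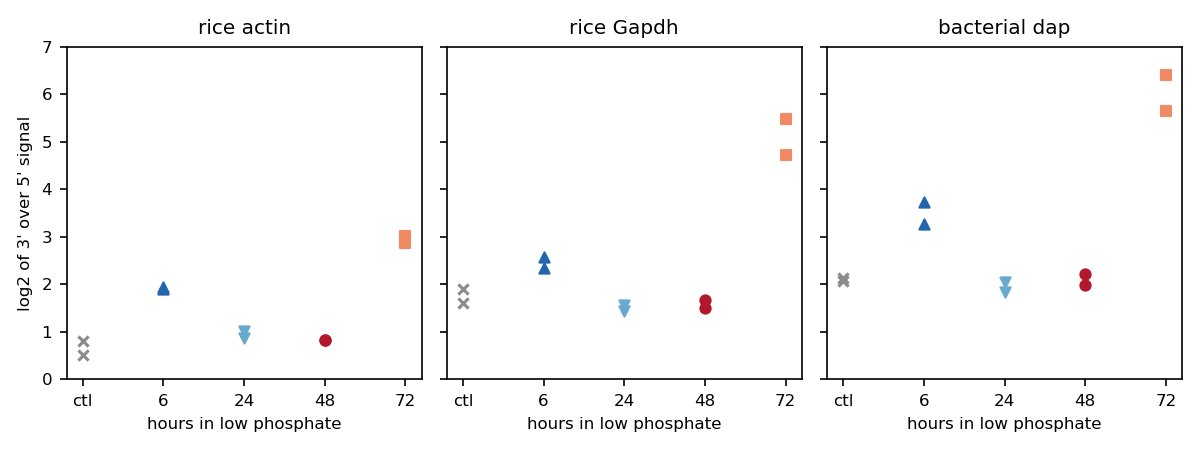
Log2 of 3′ over 5′ signal (vertical axis) of rice actin, rice Gapdh and bacterial dap on each array, by hours in low phosphate (horizontal axis, ctl for the control), with 2 points per time, 1 for each array. The 72 h arrays lie highest in all 3 panels (Gapdh 4.73 and 5.48), the 6 h arrays come next, and the 24 h and 48 h arrays lie near the control.

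At most of the separated and called probe sets the largest step was the one across which separation is defined. Among the 2841 higher probe sets the largest step of the time means was between 24 and 48 h at 2249, between 6 and 24 h at 316 and between 48 and 72 h at 276, and among the 1906 lower ones the counts were 1467, 150 and 289. Separation fixes the direction of the 24 to 48 h step and leaves that of the others free. The share of the 24 to 48 h step is therefore a description and no finding about timing. The 4 time means ran in one order at 715 higher and 388 lower probe sets.

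Set beside the control, the separated genes held both departures from it and returns towards it. The control mean was nearer the late mean at 1566 of the 2841 higher probe sets (55.1%) and at 1215 of the 1906 lower ones (63.7%), against 57.4% and 56.6% of all probe sets called in these directions. It lay beyond the late mean at 710 higher and 794 lower probe sets and beyond the early mean at 532 and 333. Against the control, 1231 of the 2841 were called higher and 334 lower in the late phase, and 154 were called higher and 1492 lower in the early phase. Of the 1906, 480 were called higher and 744 lower in the late phase, and 1239 higher and 160 lower in the early phase. Over all 34355 probe sets the late phase was called higher than the control at 21.9% and lower at 15.5%, and the early phase higher at 20% and lower at 18%. The comparisons with the control share its 2 arrays and the late and early arrays with the separation, so these counts are given side by side and not as support.

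Among the 12 named genes with the widest gap upwards, 5 were regulators of development or hormone and peptide signalling, and OsMADS5 had the widest gap of all 12. OsMADS5 (LOC4340218), a SEPALLATA-type MADS-box factor of the floret, had signals of 245.6 and 181.2 at 48 h and 301.4 and 223 at 72 h, against 11.3 and 23.4 at 6 h and 76.8 and 58.1 at 24 h. Its late arrays were all near the control signals of 270.2 and 347.1, and the 6 h arrays were under 23.9, the level of the filter on low signals. The log2 difference was 2.83 ± 0.27 (SE) with adjusted p = 5.16e-06. OsRR9, a type-A response regulator that cytokinin induces, had 1402 and 1495 at 48 h and 2830 and 2747 at 72 h, against 424.3 and 422.2 at 6 h and 679.6 and 690.2 at 24 h. Its arrays climbed at each time, and the control lay between the phases at 919.2 and 831.1. The difference of OsRR9 was 1.90 ± 0.06 (adjusted p = 6.23e-10).

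OsMADS56, a MADS-box factor of flowering time, was even across the late phase, with 2009, 2151, 2127 and 2075, against 784.8 and 841.5 at 6 h and 1004 and 1191 at 24 h. The phases did not overlap, the control arrays at 1337 and 1477 lay between them, and OsMADS56 rose by 1.15 ± 0.07 (adjusted p = 8.80e-08). IAA12, an Aux/IAA repressor of auxin response, had 1773 and 1700 at 48 h and 1557 and 1507 at 72 h, against 821.7 and 817.7 at 6 h and 677.9 and 774.9 at 24 h. Here the early arrays were near the control (614 and 777.5) and the late arrays stood above both, with a difference of 1.08 ± 0.08 (adjusted p = 5.65e-07). PSK2, a precursor of the growth peptide phytosulfokine, had 1778 and 1790 at 48 h and 2661 and 2218 at 72 h, against 892 and 855.4 at 6 h and 809.5 and 861.6 at 24 h. Its late arrays were back at the control level of 2262 and 2374, and the difference was 1.29 ± 0.06 (adjusted p = 2.28e-08).

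Another 3 were growth and wall genes. OsFEN-1, the flap endonuclease that trims Okazaki fragments in DNA replication, had 805.7 and 828.6 at 48 h and 722.7 and 735.2 at 72 h, against 309 and 307.4 at 6 h and 256.1 and 320.3 at 24 h. Every late array was above both the early and the control arrays (366.1 and 324.5), and OsFEN-1 rose by 1.38 ± 0.09 (adjusted p = 3.52e-07). OsEXPA3, an expansin that loosens cell walls, had 929.3 and 842.2 at 48 h and 444.7 and 467 at 72 h, against 214.6 and 188.4 at 6 h and 228.1 and 208.5 at 24 h. It peaked at 48 h, the control was lowest at 84.3 and 89.7, and the difference was 1.60 ± 0.11 (adjusted p = 3.80e-07). CYCP3-1, a P-type cyclin, had 2859 and 3459 at 48 h and 3887 and 3998 at 72 h, against 1523 and 1573 at 6 h and 1707 and 1507 at 24 h. The early arrays of CYCP3-1 lay under the control (3302 and 3330) and the late arrays around it, with a difference of 1.16 ± 0.06 (adjusted p = 5.03e-08).

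Transport and metabolism supplied the other 4. OsNramp5, the root carrier that takes up manganese, had 5281 and 5417 at 48 h and 5516 and 5559 at 72 h, against 3202 and 3239 at 6 h and 2537 and 2581 at 24 h. The 4 late arrays differed little among themselves and stood above the control as well (2863 and 2958), and OsNramp5 rose by 0.92 ± 0.04 (adjusted p = 3.31e-09). The copper transporter OsCOPT2 had 374.7 and 392.7 at 48 h and 506.8 and 428.5 at 72 h, against 184.4 and 215.2 at 6 h and 148.1 and 143.1 at 24 h, a difference of 1.31 ± 0.11. OsCIN2, a cell-wall invertase that splits sucrose, had 462.3 and 446.9 at 48 h and 362.1 and 507.6 at 72 h, against 156.4 and 196.2 at 6 h and 143.4 and 212.2 at 24 h, a difference of 1.34 ± 0.15. Both genes had late arrays near the control and early arrays well under it. OsCHS1, a chalcone synthase that opens flavonoid synthesis, was dim, with 49.3 and 51.3 at 48 h and 109 and 173.8 at 72 h, against 22.9 and 26.5 at 6 h and 10 and 27.4 at 24 h. Its difference of 2.04 ± 0.44 (adjusted p = 0.00276) did not pass with 48 h alone (1.32, adjusted p = 0.086) or in the pooled fit (adjusted p = 0.0911), and 3 other probe sets of OsCHS1 gave -0.37, 0.20 and -0.20 with no call.

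Downwards, the widest gap belonged to nitrate assimilation. NIA1 (LOC4345795), a nitrate reductase, had 441.8 and 453.4 at 48 h and 490.7 and 458.2 at 72 h, against 5542 and 5700 at 6 h and 3099 and 3650 at 24 h. The late arrays were tightly grouped, far below every early array and still above the control at 132.7 and 117.8. NIA1 fell by 3.24 on the log2 scale (SE 0.07, adjusted p = 5.37e-11), and it was among the genes that also passed with harvest time as a random block (adjusted p = 0.000621). The difference at the other NIA1 probe set, -1.25, had an adjusted p of 0.114.

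Calcium signalling genes took 3 of the 12 places. The kinase OsCIPK25, a partner of calcineurin B-like calcium sensors, had 88.6 and 63.8 at 48 h and 73.2 and 56.6 at 72 h, against 280.2 and 248.2 at 6 h and 1188 and 1260 at 24 h. It stood highest at 24 h, its late arrays lay between the early arrays and the control (34.6 and 40.9), and it fell by 3.03 (SE 0.18, adjusted p = 1.39e-07). The calmodulin-like protein CML16 had 225.6 and 218.5 at 48 h and 574.4 and 557.6 at 72 h, against 3625 and 3584 at 6 h and 1478 and 1498 at 24 h. CML16, unlike OsCIPK25, stood highest at 6 h, its late arrays were under the control (1309 and 1298), and it fell by 2.71 (SE 0.05, adjusted p = 2.13e-11). CML10, of the same family, had 1543 and 1591 at 48 h and 2863 and 2631 at 72 h, against 5157 and 5089 at 6 h and 9111 and 8823 at 24 h, and fell by 1.71 (SE 0.04).

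The jasmonate repressors OsJAZ13 and OsTIFY11b, JAZ proteins that jasmonate itself induces, were next. OsTIFY11b had 150.1 and 179.6 at 48 h and 224.8 and 252.4 at 72 h, against 626.3 and 544.9 at 6 h and 586.3 and 626.1 at 24 h. Its 4 early arrays agreed closely and lay above the control (240.4 and 264.1), and it fell by 1.59 (SE 0.11, adjusted p = 3.81e-07), while its other probe set gave -0.79 and did not pass (adjusted p = 0.0522). OsJAZ13 was dimmer and more scattered, with 25.2 and 45.6 at 48 h and 10.3 and 52.4 at 72 h, against 203.6 and 193.4 at 6 h and 206 and 113.8 at 24 h, and fell by 2.63 (SE 0.47, adjusted p = 7.36e-04). Its early arrays were near the control (173 and 105.5) and its late arrays under it.

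Among the remaining 6, RFS had 941 and 863.5 at 48 h and 638.8 and 705.3 at 72 h, against 2666 and 2597 at 6 h and 5370 and 5005 at 24 h. RFS fell by 2.25 (SE 0.06, adjusted p = 1.83e-10), and by the same size with harvest time as a random block (adjusted p = 0.0224). STAR1, an ATP-binding subunit of a transporter for aluminium tolerance, had 1434 and 1593 at 48 h and 1479 and 1500 at 72 h, against 2986 and 3174 at 6 h and 4169 and 4488 at 24 h. STAR1 fell by 1.28 (SE 0.05) and also passed with that block (adjusted p = 0.0466). For both, the late arrays lay above the control (443.7 and 478.6 for RFS, 1196 and 1276 for STAR1). CLA1, the entry enzyme of plastid isoprenoid synthesis, fell by 1.67 (SE 0.09), with 310.6 to 472.9 in the late phase against 851.3 to 1914 in the early phase, and its other probe set gave -0.73 with no call (adjusted p = 0.0916). The fructose-bisphosphatase gene FBPase fell by 1.002 (SE 0.05), with 1088 to 1294 against 2318 to 2471, and a second probe set fell by 1.79. OsLSD1, a zinc finger protein that restrains cell death, fell by 1.07 (SE 0.05), with 2319 to 2694 against 4746 to 6341, and its other 2 probe sets fell by 1.17 and 1.24. OsVDAC3, a channel of the outer mitochondrial membrane, fell by 1.18 (SE 0.12), with 241.6 to 286.2 against 504 to 806.3.

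Across these 24 genes separation held as deposited, with quantile normalization and with median centring, and 23 passed in the pooled fit, all but OsCHS1. The 24 were picked for the widest gaps on these same arrays, which favours both outcomes, so neither counts as support. Of all 78 named genes separated upwards, though, 72 stayed separated with quantile normalization and 36 with median centring, and of the 87 separated downwards 82 and 78 did. Of the 24, only NIA1, RFS and STAR1 passed with harvest time as a random block. At the other end, the genes nearest the border differed by almost nothing. On the upper side IAA3 was just inside, with a lowest late signal of 12848 against a highest early signal of 12844, and OsRLCK276 just outside, with 106.8 against 106.9. On the lower side VATP-P1 was just inside, with a highest late signal of 15242 against a lowest early signal of 15251, and OsHox4 just outside, with 578.2 against 578.

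**Figure D2:**
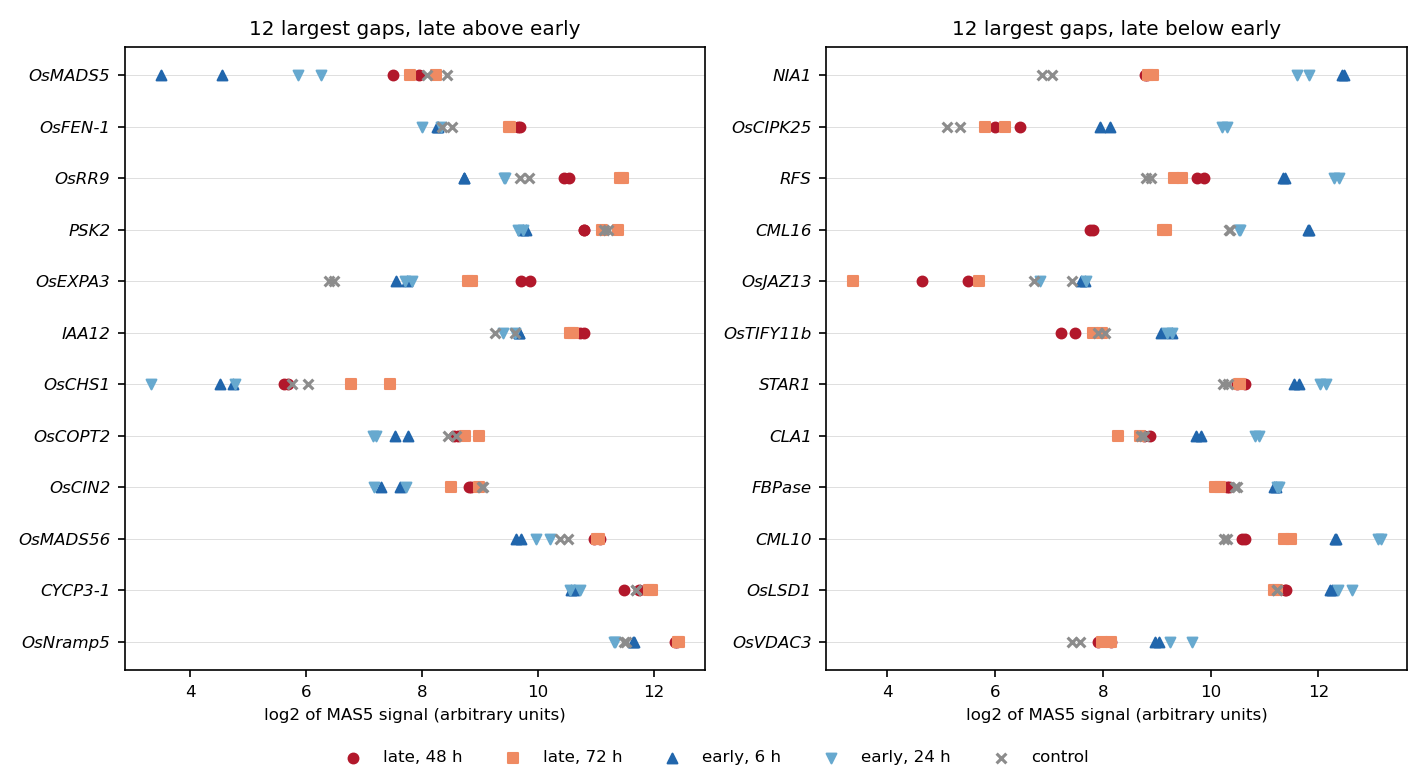
Log2 MAS5 signal (horizontal axis) of the 12 named genes with the widest gap upwards (left) and downwards (right), with 1 point per array for 48 and 72 h (late), 6 and 24 h (early) and the control. In each row the 4 late points lie wholly on one side of the 4 early points, and the position of the control varies from gene to gene (NIA1 has late signals of 441.8 to 490.7, early signals of 3099 to 5700 and control signals of 132.7 and 117.8).

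None of the 24 was a gene of the phosphate lists. The regulators OsPHR2, OsPHR3 and OsSPX4 were separated upwards, OsPHR2 and OsPHR3 not with median centring. OsPHR2, the main activator of starvation genes in rice, had 2724 and 2845 at 48 h and 2689 and 2741 at 72 h, against 1360 and 1337 at 6 h and 2407 and 2323 at 24 h. The 24 h arrays were already above the control (2034 and 2112) and close to the late arrays. OsPHR2 rose by 0.62 ± 0.04 (adjusted p = 3.38e-07, second probe set 0.28). OsPHR3, a related activator, had 1707 and 1838 at 48 h and 2042 and 1935 at 72 h, against 769.4 and 615.9 at 6 h and 1654 and 1573 at 24 h, a difference of 0.83 ± 0.07 (adjusted p = 2.52e-06). The control arrays of OsPHR3 lay above both phases, at 2444 and 2189. Against 24 h alone OsPHR3 did not pass (0.22, adjusted p = 0.0706), so its difference rests on the 6 h arrays. In the pooled fit neither OsPHR2 (adjusted p = 0.154) nor OsPHR3 (adjusted p = 0.186) passed.

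OsSPX4, an SPX protein that keeps PHR2 out of the nucleus when phosphate is ample, had 1760 and 1830 at 48 h and 1940 and 1966 at 72 h, against 1173 and 1139 at 6 h and 1328 and 1271 at 24 h. The late arrays lay above the control (1633 and 1623) and the early arrays under it, and OsSPX4 rose by 0.61 ± 0.05 (adjusted p = 8.72e-07, pooled fit 0.0344, second probe set 0.70). The standard starvation markers OsSPX1 and OsSPX2, inhibitors that phosphate shortage induces, overlapped between the phases. OsSPX1 had 1207 and 1174 at 48 h and 1072 and 1024 at 72 h, against 1018 and 869.1 at 6 h and 1016 and 1299 at 24 h, a difference of 0.10 ± 0.08 (adjusted p = 0.378). OsSPX2 had a difference of 0.03 ± 0.16 (adjusted p = 0.918). Both stood above the control in each phase, OsSPX1 by 0.43 late (adjusted p = 0.00609) and 0.32 early (adjusted p = 0.0261), and OsSPX2 by 0.63 late (adjusted p = 0.0270) and 0.60 early (adjusted p = 0.0321). OsSPX5 (0.55 ± 0.44, adjusted p = 0.375) and OsPHR1 (-0.11 ± 0.05, adjusted p = 0.141) did not pass, but OsPHR1 was called lower with median centring (-0.29, adjusted p = 0.0054) and against 24 h alone (-0.27, adjusted p = 0.00568). Of the 7 measured SPX and PHR genes, 3 were higher and none lower, with a median difference of 0.55 against 0.06 for all genes, and 1 higher in the pooled fit. Over all 16081 genes tested 27.7% were called higher and 22.1% lower. Against 24 h alone the 7 genes had 2 higher and 1 lower, with a median of 0.22 against 0.08 for all genes.

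Of the 9 measured phosphate transporters 1 was higher and 3 were lower (11.1% and 33.3%, against 27.7% and 22.1% of all genes), with a median difference of -0.38. OsPht1;1, an uptake carrier expressed under ample phosphate as well, was the only one separated. It had 2253 and 2401 at 48 h and 2456 and 2469 at 72 h, against 2954 and 2821 at 6 h and 3273 and 3205 at 24 h, with 3310 and 3526 in the control. The late arrays were the lowest of the 3 sets and OsPht1;1 fell by 0.35 (SE 0.04, adjusted p = 3.85e-05). The carrier OsPht1;2 had 4862 and 4136 at 48 h and 6525 and 6697 at 72 h, against 5304 and 5332 at 6 h and 3617 and 4136 at 24 h. Only its 72 h arrays were above all others, so its call (0.26 ± 0.06, adjusted p = 0.00385) ended with 48 h alone (-0.02, adjusted p = 0.907), against 6 h alone (0.03, adjusted p = 0.781), with median centring (0.09, adjusted p = 0.31) and without an intensity trend (adjusted p = 0.0523). Pooled as 4 against 4, OsPht1;1 (adjusted p = 0.123) and OsPht1;2 (adjusted p = 0.5) did not pass, nor did any other of the 9.

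OsPht1;4 and the xylem exporter OsPHO1;2 were called lower with overlapping phases. OsPht1;4 had 605 to 670 in the late phase, against 1504 and 1503 at 6 h and 527.3 and 585.7 at 24 h, so the 6 h arrays alone were high. Its call of -0.51 ± 0.07 (adjusted p = 1.31e-04) turned to 0.21 against 24 h alone and no longer passed (adjusted p = 0.0759). OsPHO1;2 had 2143 and 1978 at 48 h and 2792 and 2667 at 72 h, against 2096 and 2054 at 6 h and 4428 and 4216 at 24 h, so here the 24 h arrays alone were high. Its call of -0.34 ± 0.04 (adjusted p = 8.09e-05) turned to 0.19 against 6 h alone (adjusted p = 0.0182) and ended with 72 h alone (adjusted p = 0.0738), and its other probe set gave 0.02. OsPht1;8 (0.06 ± 0.09), OsPht1;3 (-0.51 ± 0.71), OsPht1;6 (-0.92 ± 0.73), OsPht1;11 (-0.90 ± 0.57) and OsPHO1;3 (-0.38 ± 0.65) did not pass, and all but OsPht1;8 were dim, with signals of 9.7 to 132.9 over both phases.

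The galactolipid synthases split. OsMGD3, which makes monogalactosyl lipid under phosphate shortage, had 1098 and 1264 at 48 h and 1274 and 1214 at 72 h, against 1009 and 1095 at 6 h and 648.1 and 668.5 at 24 h. It rose by 0.54 ± 0.07 (adjusted p = 4.62e-05), with only a small gap to the 6 h arrays and no call against 6 h alone (0.20, adjusted p = 0.0816). OsMGD1 had 1655 and 1621 at 48 h and 1260 and 1381 at 72 h, against 1978 and 1995 at 6 h and 2550 and 2216 at 24 h, and fell by 0.56 (SE 0.06, adjusted p = 1.04e-05). Its late arrays remained above the control (978.5 and 1037). OsMGD2 was dim and did not pass (0.33 ± 0.50). The pooled fit called neither OsMGD3 (adjusted p = 0.178) nor OsMGD1 (adjusted p = 0.0786), and OsMGD3 was not separated with quantile normalization or with median centring.

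**Figure D3:**
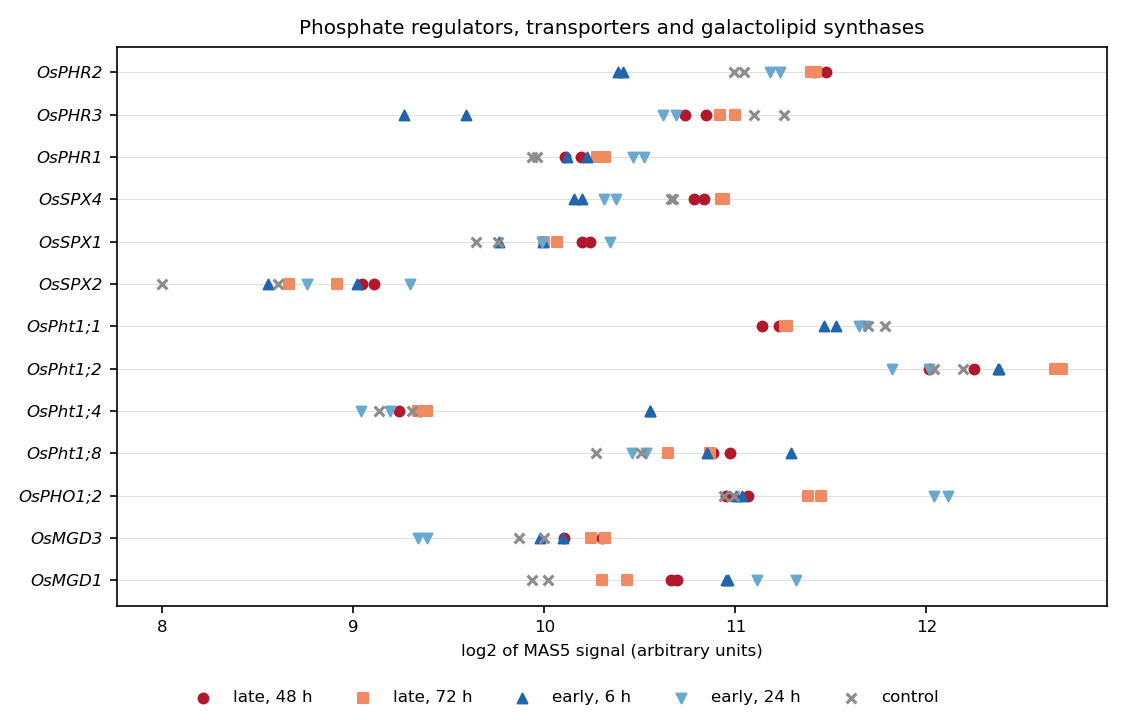
Log2 MAS5 signal (horizontal axis) of 13 phosphate regulators, transporters and galactolipid synthases, with 1 point per array for 48 and 72 h (late), 6 and 24 h (early) and the control. The late points of OsSPX4 (1760 to 1966) stand clear of its early points (1139 to 1328), while OsPht1;4 and OsPHO1;2 have early points high at 1 time only.

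Among nitrogen and sugar genes most calls were lower in the late phase, NIA1 and the ammonium carrier OsAMT1;1 by most among those named. Of the 16081 genes tested, taking the brightest probe set of each, 27.7% were called higher and 22.1% lower, and 11.3% and 7.95% were also separated. Of 18 nitrogen uptake and assimilation genes 1 was higher and 11 were lower, 5 of them separated, with a median difference of -0.32 against 0.06 for all genes. In the pooled fit 3 of the 18 were lower and none higher. Beside NIA1 they included the ammonium carrier OsAMT1;1, with 1440 and 1465 at 48 h and 819.3 and 937.3 at 72 h, against 2548 and 2648 at 6 h and 7754 and 6481 at 24 h. OsAMT1;1 was highest at 24 h, still above the control (912.8 and 1014) at 48 h and near it at 72 h. It fell by 1.93 (SE 0.07, adjusted p = 1.68e-09, pooled fit 0.0384). The cytosolic glutamine synthetase OsGS1;1 fell by 1.08 (SE 0.08, pooled fit 0.0539), with 879.2 to 1719 late against 2258 to 3421 early. The glutamate dehydrogenase OsGDH1 fell by 0.70 (SE 0.04, pooled fit 0.0484), with 2709 to 3092 against 3899 to 5497.

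Among 43 sugar transport and metabolism genes 7 were higher and 22 lower, 13 of the latter separated, with a median of -0.21. The trehalose-phosphate phosphatase OsTPP1 had 259.1 and 293.8 at 48 h and 222.5 and 254.1 at 72 h, against 515.4 and 573.7 at 6 h and 512.4 and 541.3 at 24 h. Its early arrays matched the control (507.7 and 506), and it fell by 1.06 (SE 0.10, adjusted p = 3.13e-06). FBP1, a fructose-bisphosphatase, had 1432 and 1519 at 48 h and 1092 and 969.5 at 72 h, against 2045 and 2050 at 6 h and 6562 and 6230 at 24 h, and fell by 1.55 (SE 0.05). The sugar exporter OsSWEET1a fell by 1.08 (SE 0.13), with 297.5 to 465.4 against 806.2 to 1042. Against this, another SWEET exporter, OsSWEET12, rose by 0.94 ± 0.10, with 1057 to 1544 late against 575 to 781.3 early and 305.4 and 416.2 in the control. The hexokinase HXK6 rose by 1.12 ± 0.09 and the sucrose-phosphate synthase OsSPS3F by 0.57 ± 0.06. For HXK6 the control (2684 and 2318) lay above both phases, and for OsSPS3F it was near the early phase (1580 and 1744). In the pooled fit 2 of the 43 were higher and 3 lower. OsTPP1, OsSWEET1a and OsSWEET12 passed there, while FBP1 (adjusted p = 0.0826), HXK6 (0.0839) and OsSPS3F (0.0659) did not.

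The jasmonate list had 34 measured genes, with 5 higher and 16 lower, 11 of the latter separated, and a median of -0.19. OsTIFY10a, another JAZ repressor, had 975.5 and 919 at 48 h and 974.8 and 929.8 at 72 h, against 1684 and 1825 at 6 h and 2106 and 2008 at 24 h. Its 4 late arrays were level and under the control (1440 and 1227), and it fell by 0.9999 (SE 0.06, adjusted p = 1.91e-07). The reductase OsOPR2 fell by 1.21 (SE 0.09), with 311.3 to 398.8 against 693 to 985.6. The receptor OsCOI2 (0.41 ± 0.05) and the lipoxygenases LOX3 (0.50 ± 0.08) and LOX5 (0.29 ± 0.07) rose, LOX5 without a call under median centring (adjusted p = 0.35). The pooled fit called 8 of the 34 lower and none higher, and OsCOI2, LOX3 and LOX5 were not separated with median centring. LOX5 was not separated with quantile normalization either.

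Calcium signalling genes numbered 68, with 15 higher and 26 lower, of which 3 and 13 were separated, and a median of -0.07. Beyond OsCIPK25, CML16 and CML10, the separated genes with the next widest gap were OsCAM61, a calmodulin-like gene lower by 0.64, and, upwards, the sensor CBL5 (0.77 ± 0.17) and the kinases OsCIPK19 (0.56 ± 0.04) and OsCIPK08 (0.44 ± 0.05). CBL5 had 264.5, 272.7, 250.8 and 260.2 in the late phase, against 179.4 and 151.2 at 6 h and 180.8 and 114 at 24 h. The pooled fit called 1 of the 68 higher, OsCIPK19, and 3 lower, and CBL5 and OsCIPK08 were not separated with median centring.

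Among DNA replication and cell cycle genes most calls were higher. Of 50 measured genes 19 were higher and 2 lower, 14 and 2 of them separated, with a median difference of 0.38. With median centring the counts were 12 higher and 4 lower with a median of 0.20 against -0.12 for all genes, and in the pooled fit 2 were higher. OsFEN-1b, a second flap endonuclease, had 2300 and 2362 at 48 h and 2146 and 2223 at 72 h, against 1349 and 1439 at 6 h and 1284 and 1416 at 24 h. The late arrays were at the control level (2356 and 2099) and OsFEN-1b rose by 0.72 ± 0.06 (adjusted p = 9.12e-07, pooled fit 0.0175). OsTOP6B, a topoisomerase subunit, rose by 0.77 ± 0.14, with 402.2 to 505.1 late against 198.6 to 305.7 early. The cyclin CYCA1-4 rose by 0.84 ± 0.15, with 303.9 to 379 late against 166.5 to 251.3 early. The 2 genes that went against the list were the kinase gene CDC2-2, lower by 0.70, and the D-type cyclin CYCD5-3, lower by 0.97. The other CDC2-2 probe set gave -0.47 with no call. Of 5 histone genes 4 were higher, 1 of them separated. That was H2B.11, with 4480 to 5483 late against 2634 to 3616 early and a rise of 0.61 ± 0.05. OsTOP6B (adjusted p = 0.0637), CYCA1-4 (0.0531), CDC2-2 (0.0601), CYCD5-3 (0.0755) and H2B.11 (0.0602) did not pass in the pooled fit, and OsTOP6B, CYCA1-4 and H2B.11 were not separated with median centring.

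Auxin genes were near the background, with 16 higher and 9 lower of 52, 9 and 2 separated. Their leading members beside IAA12 were IAA30, a further Aux/IAA repressor that rose by 0.76 ± 0.05, SAUR39 (0.65 ± 0.04) and the efflux carrier OsPIN2 (1.32 ± 0.27). IAA30 had 2784, 2780, 2873 and 2831 in the late phase, against 1519 and 1485 at 6 h and 1881 and 1813 at 24 h, and 1326 and 1505 in the control. Its late arrays were nearly identical and the highest of all. OsGH3-8, an enzyme that conjugates auxin with amino acids, fell by 1.44 (SE 0.13), with 206.1 to 274.1 late against 452 to 1031 early and 132.6 and 183.4 in the control. Pooled, 3 of the 52 were higher (IAA12, IAA30 and SAUR39) and 1 lower (OsGH3-8), while OsPIN2 did not pass (adjusted p = 0.0559). SAUR39 and OsPIN2 were not separated with median centring.

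Of 24 genes of gibberellin and diterpenoid synthesis 11 were higher and 5 lower, and the 4 with the widest gap upwards belong to phytoalexin routes. OsMAS, momilactone A synthase, had 769.6 and 915.5 at 48 h and 700.1 and 761.1 at 72 h, against 379.3 and 465 at 6 h and 439 and 454.9 at 24 h. Its control arrays were higher still (1030 and 1044), and OsMAS rose by 0.85 ± 0.09 (adjusted p = 9.95e-06). The cyclase OsCPS2 rose by 1.30 ± 0.15, and it too had late signals (263.2 to 414.3) between those of the early phase (87.4 to 227.4) and the control (592.2 and 717.3). OsKSL4 (0.88 ± 0.18) and OsKSL7 (0.78 ± 0.19), terpene synthases, rose, with no call when 72 h alone was set against the early phase (adjusted p = 0.239 and 0.132). The gibberellin oxidase gene sd1, of semidwarf rice, was lower by 1.46 (SE 0.39, adjusted p = 0.0101), and that call ended against 6 h alone (adjusted p = 0.231), with 72 h alone (adjusted p = 0.0593) and without an intensity trend (adjusted p = 0.0557). OsMAS alone of the 24 was called higher in the pooled fit (adjusted p = 0.0258), none was lower, and OsCPS2, OsKSL4 and OsKSL7 were not separated with median centring. OsKSL4 and OsKSL7 were not separated with quantile normalization either, and the other OsKSL7 probe set gave 0.34 with no call.

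Root-enriched markers leaned lower in the late phase, with 57.1% called lower and 28.6% higher, against 22.1% and 27.7% of all genes. Their median difference was -0.50, and the pooled fit called 1 lower and none higher. The 14 root-enriched markers had a summed signal of 116126 to 123320 in the late phase, 136977 to 151069 in the early phase and 80165 and 81851 in the control, with 4 of the 14 higher and 8 lower. The 10 measured shoot markers summed to 80231 to 87102 late, 84619 to 109618 early and 102261 and 103501 in the control, with 3 higher and 7 lower. Of the early arrays only those of 6 h (109618 and 108533) were above the late range, while those of 24 h had 85838 and 84619. The 6 endosperm and aleurone markers summed to 2405 to 4366 late, 2065 to 2648 early and 6709 and 7061 in the control, with 3 higher and none lower. Their 48 h arrays (2413 and 2405) lay within the early range, and only the 72 h arrays (4168 and 4366) were above it. With 48 h alone none of the 6 was called. In RNA of seedlings a smaller share of an organ and less RNA of its genes cannot be told apart, and the part of these levels in the lists was not tested. The root silicon carrier gene Lsi1 and the leaf gene OsrbcS both had bright signals on all arrays, at least 8480 and 13206.

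Of 43 iron homeostasis genes 7 were higher and 19 lower, 3 and 6 separated, with a median of -0.10. OsNAS2, a nicotianamine synthase that makes the metal chelator of long-distance transport, had 15726 and 15213 at 48 h and 11079 and 11340 at 72 h, against 24668 and 25742 at 6 h and 23781 and 22333 at 24 h. It was lowest of all in the control (5071 and 5233), and it fell by 0.87 (SE 0.03, adjusted p = 2.44e-09, pooled fit 0.0187). OsNramp1, a metal carrier, fell by 1.14 (SE 0.05), with 1569 to 3300 late against 4224 to 6597 early and 5287 and 5128 in the control. The zinc transporter OsZIP4 fell by 1.02 (SE 0.17), with 123.9 to 163 late against 250.8 to 345.7 early. Upwards, beside OsNramp5, stood tom1, which exports deoxymugineic acid from roots (0.32 ± 0.04), and NRAMP4 (0.40 ± 0.09), which had no call with 72 h alone (adjusted p = 0.145) or median centring (adjusted p = 0.101). The pooled fit called 1 of the 43 higher, OsNramp5, and 2 lower, OsNAS2 and OsZIP4, but not OsNramp1 (adjusted p = 0.063). With median centring tom1 and NRAMP4 were not separated.

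Aquaporins had 2 higher and 14 lower of 23, with 2 of the latter separated and a median of -0.27. OsPIP2;1, a plasma membrane water channel, had 8700 and 9199 at 48 h and 10460 and 11580 at 72 h, against 15215 and 14628 at 6 h and 14668 and 15366 at 24 h. It stood above the control (4786 and 4529) in both phases and fell by 0.59 (SE 0.04, adjusted p = 3.49e-07), and its other probe sets fell by 0.55 and 0.36. In the pooled fit none of the 23 was higher and 1 was lower, OsPIP2;1 (adjusted p = 0.0331).

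The silicon transport and Casparian strip list had 4 higher and 10 lower of 25, 2 and 3 of them separated, with a median of -0.16 and no call in the pooled fit. The separated higher genes were the carriers Lsi1 and Lsi2. Lsi1 had 20826 and 19781 at 48 h and 25655 and 25293 at 72 h, against 19633 and 19448 at 6 h and 9107 and 8480 at 24 h, a rise of 0.80 ± 0.03 with a gap of only 0.01. Lsi2, the efflux partner of Lsi1, had 8095 and 8134 at 48 h and 11279 and 11142 at 72 h, against 4695 and 4708 at 6 h and 6827 and 7045 at 24 h, and rose by 0.74 ± 0.03. Pooled, Lsi1 had an adjusted p of 0.176 and Lsi2 one of 0.0769, and Lsi1 was not separated with median centring. The separated lower genes code for Casparian strip membrane-like proteins. OsCASPL4B2 fell by 0.42 (SE 0.04), with no call against 6 h alone (adjusted p = 0.209), and OsCASPL1E1 fell by 0.52 (SE 0.07), with no call against 24 h alone (adjusted p = 0.0772). OsCASPL1E1 was not separated with quantile normalization or with median centring. OsCASPL2B1 fell by 0.75 (SE 0.23, adjusted p = 0.0228), a call that ended with 72 h alone, against 6 h alone and on leaving out either 6 h array, 24 h replicate 2, 48 h replicate 1 or 72 h replicate 2. With 72 h alone the adjusted p was 0.182 and against 6 h alone 0.241. Other probe sets of OsCASPL2B1 gave -0.94, called lower, and 0.11 with no call.

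Photosynthesis genes had 2 higher and 9 lower of 15, ribosomal protein genes 1 higher and 16 lower of 25, and housekeeping reference genes 1 higher and 13 lower of 23. In the pooled fit the photosynthesis list had 1 higher and 2 lower, and no ribosomal or housekeeping gene was called. The small subunit gene of Rubisco, OsrbcS, had 13480 and 13659 at 48 h and 13206 and 13489 at 72 h, against 18738 and 18351 at 6 h and 20073 and 19754 at 24 h. The late arrays were level and below the control (15143 and 15058), and OsrbcS fell by 0.51 (SE 0.03, adjusted p = 3.38e-08), though its other probe sets gave 0.04 with no call and a rise of 1.03. PSB28, a photosystem assembly protein, fell by 1.02 (SE 0.06). ACT1, an actin often used as a reference, fell by 0.33 (SE 0.05), with 7606 to 8541 late against 9292 to 10628 early. Against 24 h alone the housekeeping counts were 9 higher and 9 lower, and the photosynthesis counts were 6 and 7. Over all genes they were 4854 and 3850. The lean of these 2 lists downwards thus rested in good part on the 6 h arrays, while the ribosomal counts there were 4 and 16. RPS7, the 1 ribosomal gene called higher (0.20 ± 0.03), lost its call with median centring (0.02, adjusted p = 0.743).

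**Figure D4:**
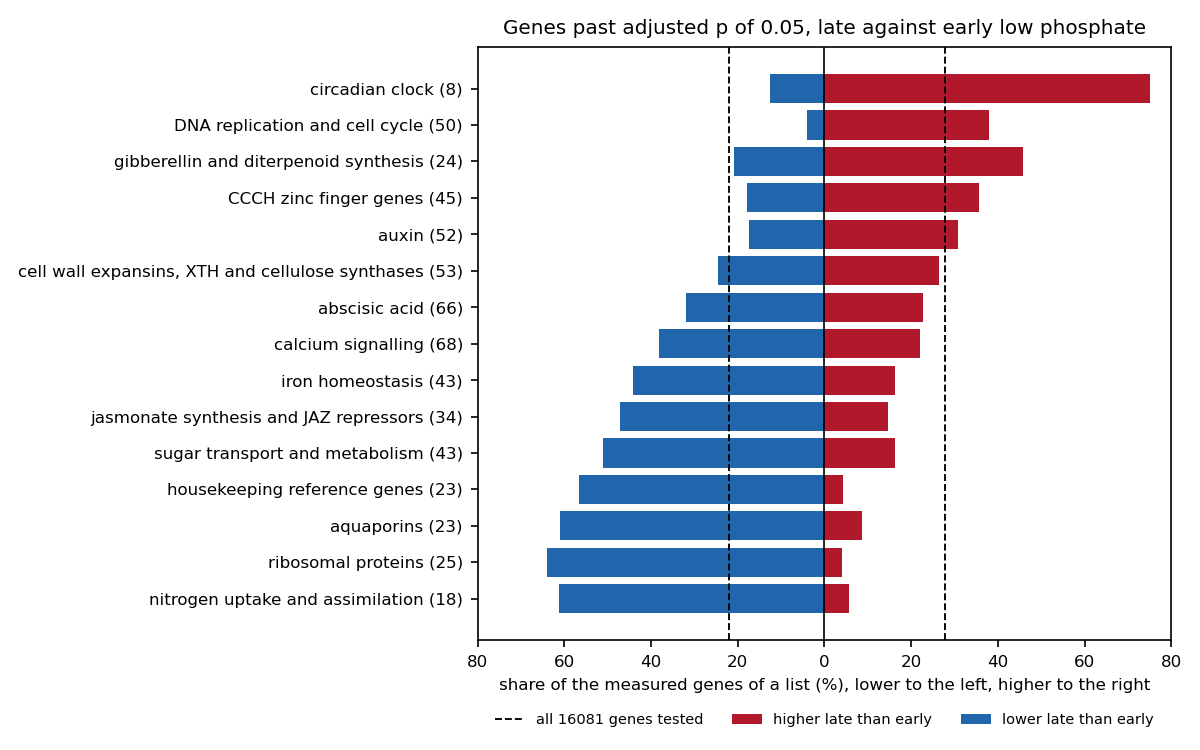
Share of the measured genes of 15 lists (rows, number measured in parentheses) that were called higher (right) or lower (left) in the late than in the early phase by limma at adjusted p under 0.05. Dashed lines mark the shares over all 16081 genes, 27.7% higher and 22.1% lower, and the nitrogen list reaches 5.56% higher and 61.1% lower.

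Clock genes showed how a single time can set a phase difference. Of 8 measured genes 6 were higher and 1 lower, but only OsPRR73 and OsPRR95, pseudo-response regulators that repress morning genes, were separated. OsPRR73 had 6230 and 5869 at 48 h and 6685 and 6383 at 72 h, against 4537 and 4688 at 6 h and 697 and 680.7 at 24 h. OsPRR95 had 11275 and 11105 at 48 h and 10268 and 10558 at 72 h, against 7028 and 6949 at 6 h and 1374 and 1360 at 24 h. In both, the 24 h arrays were far below all others, and the differences were 1.82 ± 0.04 and 1.80 ± 0.03. A second OsPRR73 probe set gave 0.80 and was not separated. None of the 8 passed in the pooled fit. LIR1, a light-regulated gene, had 19335 and 18394 at 48 h and 16367 and 16899 at 72 h, against 18847 and 18551 at 6 h and 573.5 and 560.6 at 24 h. Its call of 2.44 ± 0.03 became -0.08 against 6 h alone (adjusted p = 0.163).

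GI, which links the clock to flowering, was also low at 24 h alone (630.4 and 788.3, against 6031 and 6060 at 6 h), and its call of 1.61 ± 0.06 ended against 6 h alone (0.06, adjusted p = 0.57). That of OsPRR37 (1.28 ± 0.07) ended there too (0.08, adjusted p = 0.537), and the other OsPRR37 probe set gave -0.41 with no call. OsLHY, the morning factor, was the reverse, with 2823 and 2907 at 48 h and 4947 and 5143 at 72 h, against 3100 and 2930 at 6 h and 12037 and 13107 at 24 h. Its call of -0.69 ± 0.05 turned to 0.33 against 6 h alone (adjusted p = 9.72e-04). OsPRR1 differed between the late times, with 2274 and 2262 at 48 h and 509.1 and 475.9 at 72 h, against 406.4 and 511.3 at 6 h and 22.1 and 29.9 at 24 h. OsPCL1 did not pass (0.29 ± 0.34, adjusted p = 0.56), with 2.09 at 48 h alone and -1.52 at 72 h alone. Samples at 24, 48 and 72 h would share a clock time if all exposures began together, but the hour of harvest is not given, and the part of time of day in the results was not tested.

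**Figure D5:**
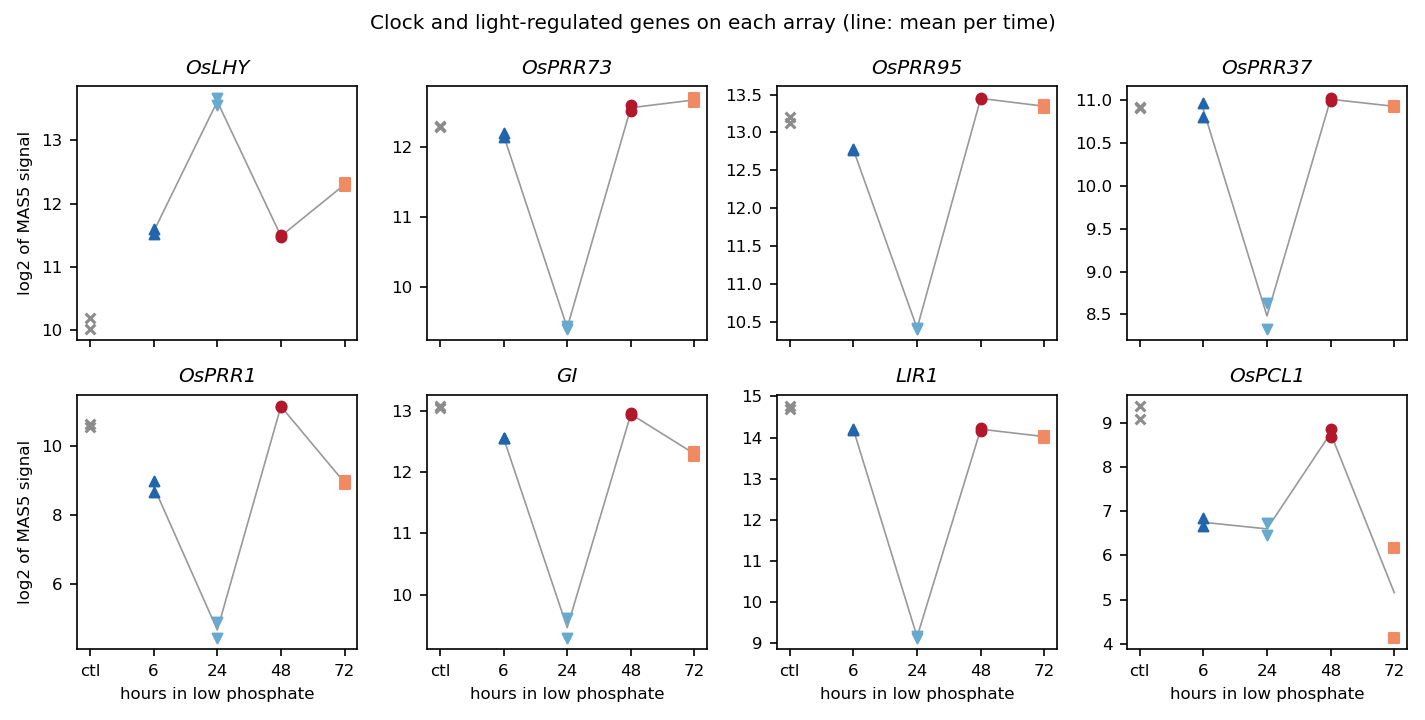
Log2 MAS5 signal (vertical axis, scaled to each gene) of 8 clock and light-regulated genes by hours in low phosphate (horizontal axis, ctl for the control), with 1 point per array and a line through the means of the low-phosphate times. For OsPRR73, OsPRR95, OsPRR37, GI and LIR1 the 24 h arrays alone are low (LIR1 573.5 and 560.6), and for OsLHY they alone are high (12037 and 13107).

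Further transcription factors and stress genes were separated in both directions. Of 45 CCCH zinc finger genes 16 were higher and 8 lower, and OsC3H37 rose by 1.79 ± 0.07, with 4023 to 5737 late against 3560 and 3267 at 6 h and 504.4 and 654.1 at 24 h. OsC3H35 rose by 1.25 ± 0.05 with the same low 24 h arrays (1186 and 1034), and its other probe sets gave 0.54 and 0.40 and were not separated. With median centring this list had 7 higher and 16 lower and all genes 2355 and 5436, so the list moved as all genes did. No gene of this list passed in the pooled fit. OsWRKY71, a WRKY factor of defence and gibberellin signalling, had 720.5 and 749.6 at 48 h and 1072 and 1029 at 72 h, against 1417 and 1494 at 6 h and 2626 and 2653 at 24 h. It fell by 1.16 (SE 0.05, adjusted p = 7.62e-09), and its late arrays were under the control (1682 and 1700). The stress factor OsNAC6 fell by 0.66 (SE 0.05), with 5171 to 6559 late, 8755 to 10507 early and 13233 and 13217 in the control, an order in which the control was highest.

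The heat shock list was balanced, with 14 higher and 16 lower of 44. The small heat shock protein OsHsp23.2 rose by 1.12 ± 0.08, with 1391 to 2657 late against 794.7 to 897.9 early and 413.5 and 471.1 in the control, while the heat shock factor HSFA2A fell by 1.74 (SE 0.13), with 86.6 to 284.4 against 373.1 to 725.4. Other HSFA2A probe sets gave -2.46, called lower, and 0.82 with no call. The dehydrin OsDhn1 fell by 1.30 (SE 0.05), with 4042 to 4851 against 6916 to 17913. The brassinosteroid synthesis gene OsDWARF fell by 1.34 (SE 0.08), with 586.4 to 714.8 against 908.9 to 3062, and the ethylene receptor OsETR2 rose by 0.95 ± 0.06, with 1803 to 2479 against 892.2 to 1351. Adh2, an alcohol dehydrogenase of fermentation, had 9083 and 8835 at 48 h and 13953 and 13696 at 72 h, against 8201 and 7834 at 6 h and 893.6 and 905 at 24 h. The rise of Adh2 by 2.05 ± 0.03 thus held a narrow gap to 6 h (0.11) and a wide one to 24 h. Abscisic acid genes (15 higher and 21 lower of 66), cell wall genes (14 and 13 of 53) and antioxidant enzymes (15 and 14 of 46) lay near the background in 1 direction or both. In the pooled fit the heat shock list had 1 higher and 1 lower, the abscisic acid list none, the cell wall list 2 higher and the antioxidant list 1 higher. Of the genes of this group OsHsp23.2 and OsETR2 passed there, and HSFA2A (adjusted p = 0.0745), OsDhn1 (0.0567), OsDWARF (0.11) and Adh2 (0.176) did not.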

How the data were processed

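The authors deposited 1 signal intensity per probe set and array on a linear scale. Per the submitters' processing notes they used GCOS and MAS5, of unstated version. A trimmed mean of 500.1 was found on each of the 10 arrays, the mark of a common scaling target. The number of arrays limits the precision of each value, and dim probe sets have wide errors.

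Of 57381 probe sets, 123 were Affymetrix controls, and the platform annotation gave 1 gene for 22436, several for 95 and none for 34727. The 22436 stand for 17905 genes, all found in RefSeq's table, 2458 with a published name. Genes are named only where there was 1.

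Signals were taken to log2. Probe sets with a mean above the 40th percentile (signal 23.9) were tested. limma 3.58.1 in R 4.3.3 fitted a mean for each of the 5 groups (5 residual degrees of freedom, intensity trend), and the contrast was the mean of 48 and 72 h minus that of 6 and 24 h. Tests were two-sided with Benjamini-Hochberg adjustment over all probe sets tested. Log2 differences and SEs come from this fit. The fitting code was tested on simulated data.

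Named genes were the 12 widest gaps in each direction among probe sets separated and called with 1 named gene, taking a gene's probe set with the highest mean, up to 4 per direction and list, and all measured phosphate and clock genes. Among separated and called genes with a published name, 124 had other tested probe sets, 184 together. Of these 184, 94 were called the same way, 18 the opposite way and 72 not at all, and 42 were separated the same way. A gap is the distance between the nearest arrays of the phases. The 47 lists were matched through symbols and synonyms and share genes. The comparison, members and lists were chosen with earlier results of these data known. Alternatives changed the filter, scaling, log scale, variance model, design, times and arrays used. Python 3.11.15 with pandas 2.3.3, numpy 2.4.6 and matplotlib 3.10.9 made counts and figures. No sequence is shown, because no sequence table was used.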

Additional observations from a re-analysis of the deposited data

Results flagged for a closer look

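OsJAZ13 had 1 early array apart from the other 3, low Pi 24 h replicate 2 with a signal of 113.8 against 193.4 to 206, a gap of 0.894 of the range of the 4 early arrays, above the 95% critical value of Dixon's test. The 4 late and 4 early arrays of the 24 genes with the widest gaps were examined in this way, 48 groups in all, and chance marks about 1 group in 20. That array was nearer the late arrays, so the OsJAZ13 gap was set by it.

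Outside the gene comparisons, the log2 ratio of 3′ to 5′ signal at 72 h averaged 2.93 for rice actin, 5.10 for rice Gapdh and 6.03 for bacterial dap, against a control mean of 0.65 for rice actin and 1.75 for rice Gapdh. Its part in the late signals was not tested.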

How the results depend on the processing

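Counts moved with the design and the scaling. As given in the report, limma called 7015 probe sets higher and 5841 lower. The pooled fit of 4 against 4 gave 448 higher and 400 lower, harvest time as a random block gave 5 and 25, and median centring gave 3807 higher, as against 8693 lower, which was within 1.5 times. Separated probe sets, 3164 higher and 2031 lower, fell to 1216 higher with median centring (1105 of them from the 3164). Of the 2841 and 1906 separated and called probe sets, 2194 and 1906 were called the same way with median centring. Dropping a time eases separation by construction, since fewer arrays must lie apart. It gave 6663 higher and 4681 lower for 48 h alone, 8445 and 5695 for 72 h alone, 8406 and 6445 against 24 h alone, and 7155 and 5694 against 6 h alone. Leaving out 1 low-phosphate array in turn gave 3700 to 3937 separated higher and 2349 to 2460 lower, and leaving out any array gave 5792 to 7082 called higher and 5051 to 5803 lower.

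Replicate numbers did not pair the arrays (correlation of same-numbered deviations -0.0086 to 0.0165 over 10 pairs of groups), and with the replicate block limma called 6918 higher and 5800 lower. Called genes whose difference turned sign were OsPht1;2 with 48 h alone (-0.016), OsPht1;4 against 24 h alone (0.21), OsPHO1;2 (0.19), OsLHY (0.33) and LIR1 (-0.078) against 6 h alone, while OsPCL1 passed as lower with 72 h alone (-1.52). Of 173 named genes called, 120 did not pass in the pooled fit and 170 not with the random block. Among named genes called in either fit, no sign turned with quantile normalization or median centring. Genes without a call were not counted in this. The cause of these changes was not tested.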
